A study of Drosophila melanogaster with 2 samples.

Results

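Peaks of the zinc finger protein CG17801 at head-to-head promoters are described here, where 2 protein-coding genes of opposite strands start close to each other and are transcribed away from each other. A peak was a member when its summit lay within 250 bp of the nearest protein-coding transcription start and that start had a start of another protein-coding gene on the opposite strand, head to head and at most 500 bp away. The rule used positions only, not the strength of a peak. It chose 1180 of the 6723 peaks in the authors' list filtered by irreproducible discovery rate (the IDR list), which is 17.6% (95% Wilson interval 16.7% to 18.5%). Of the remaining peaks, 2519 had their summit within 250 bp of another protein-coding start and are called other promoter summits, and 3024 lay farther away.

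The series is a ChIP-seq experiment on ovaries of adult Drosophila melanogaster females of unknown age. The flies come from a transgenic line with a site-specific insertion that stably expresses CG17801 with GFP fused to its C-terminus, and the fusion was precipitated with an antibody to GFP. There is 1 group with 2 biological replicates, numbered 1 and 3, so that both replicates carry the same transgene and no condition is compared. No list from flies without the fusion or with another GFP fusion was used, so signal that any GFP fusion would give at these promoters cannot be told apart from that of CG17801. The labels give ovary tissue with no further sorting, and peak lists do not tell germline from somatic cells.

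At a head-to-head promoter a single nucleosome-poor stretch can serve both genes, and in compact genomes such as that of Drosophila this layout is common among housekeeping genes. Drosophila housekeeping promoters often carry the DNA replication-related element (DRE), bound by DREF and BEAF-32, or Motif 1, bound by M1BP. M1BP, like CG17801, belongs to the ZAD zinc finger proteins, which pair through an N-terminal ZAD domain and bind DNA with C2H2 zinc fingers.

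The sequences under the strongest member summits are shown first as examples. The results on base composition and motifs come from windows of 101 and 201 bp around all 1180 member summits. They are the 8 strongest pairs that were found in both replicates and had a summit outside annotated untranslated regions (UTRs), with 1 arm left out. Names give the gene on the minus strand and then the gene on the plus strand. The letters are the plus strand of the RefSeq Release 6 genome (dm6), cut either to the stretch between the 2 starts or to 60 bp on each side of the summit, without UTR bases. Capitals mark matches on either strand to the DRE (TATCGATA), Motif 1 (GGTCACACT), Motif 6 (GTATNTTT) or Motif 7 (CANCNCTA).
CG11309/CG7632 (chr3L:21304510-21304608): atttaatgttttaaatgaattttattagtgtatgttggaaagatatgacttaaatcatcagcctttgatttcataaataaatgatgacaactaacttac
CG5611/Mtl (chr3R:27636104-27636224): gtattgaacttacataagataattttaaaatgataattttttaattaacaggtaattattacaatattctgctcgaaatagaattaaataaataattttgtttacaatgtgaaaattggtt
Art3/mRpS10 (chr3R:15229409-15229664): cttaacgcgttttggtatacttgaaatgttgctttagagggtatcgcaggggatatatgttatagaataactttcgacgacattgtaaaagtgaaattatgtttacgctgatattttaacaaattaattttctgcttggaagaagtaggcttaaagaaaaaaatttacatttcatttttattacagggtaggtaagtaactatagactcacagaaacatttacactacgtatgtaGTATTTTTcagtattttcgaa
eIF4EHP/CG18428 (chr3R:24109128-24109248): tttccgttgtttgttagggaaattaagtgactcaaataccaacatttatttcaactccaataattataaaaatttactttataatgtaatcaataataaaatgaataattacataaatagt
mRpS23/CenG1A (chr2L:13835401-13835521): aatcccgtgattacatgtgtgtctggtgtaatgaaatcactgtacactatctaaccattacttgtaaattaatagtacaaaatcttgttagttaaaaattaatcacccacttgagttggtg
CG13390/CG17294 (chr2L:8376798-8377034): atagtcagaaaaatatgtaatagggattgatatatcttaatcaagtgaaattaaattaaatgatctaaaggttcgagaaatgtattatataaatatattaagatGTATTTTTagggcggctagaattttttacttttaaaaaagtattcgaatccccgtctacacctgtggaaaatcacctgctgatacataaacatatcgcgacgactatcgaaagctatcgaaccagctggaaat
Tcs5/CHMP2B (chr3L:5139396-5139618): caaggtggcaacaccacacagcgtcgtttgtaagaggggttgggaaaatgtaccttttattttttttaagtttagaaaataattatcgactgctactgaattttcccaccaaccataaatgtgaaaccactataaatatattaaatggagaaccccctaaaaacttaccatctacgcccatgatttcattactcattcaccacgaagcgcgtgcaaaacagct
brm/Arl1 (chr3L:15982870-15983134): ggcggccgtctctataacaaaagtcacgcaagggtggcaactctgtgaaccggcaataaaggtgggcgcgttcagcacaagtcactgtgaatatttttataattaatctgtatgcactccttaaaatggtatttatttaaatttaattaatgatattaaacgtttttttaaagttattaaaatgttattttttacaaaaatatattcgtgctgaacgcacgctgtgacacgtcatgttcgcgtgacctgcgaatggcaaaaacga
Across these 8 stretches A and T make up 61.9% to 81.8% of the bases. The stretches of Art3/mRpS10 and CG13390/CG17294 hold a Motif 6, and the other 6 hold no capitals.

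For contrast, Cht11/CG4558 and Top3beta/wuho are shown with a DRE and a Motif 1. Each was the strongest member found in both replicates, with the same arm left out, that held the whole motif within 60 bp of the summit, in a stretch of at least 80 bases without UTR. The examples were picked after their values were seen.
Cht11/CG4558 (chrX:6849666-6849769): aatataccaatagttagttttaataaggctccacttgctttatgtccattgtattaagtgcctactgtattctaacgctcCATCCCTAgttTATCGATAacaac
Top3beta/wuho (chrX:6288003-6288099): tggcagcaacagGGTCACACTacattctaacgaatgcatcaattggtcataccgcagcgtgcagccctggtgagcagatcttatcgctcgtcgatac
In Cht11/CG4558, a chitinase gene paired with an uncharacterized gene, a Motif 7 and a DRE stand 3 bases apart near the CG4558 start. Its peak had a signal of 803 and rank 201 in the IDR list, with rank 236 in replicate 1 and 184 in replicate 3. In Top3beta/wuho, which pairs a topoisomerase gene with a gene needed in germline cells, Motif 1 stands on the Top3beta side. Its peak had a signal of 251 and rank 1894, with rank 1483 in replicate 1 and 2391 in replicate 3. The signal is the authors' own value for a peak, on a scale that no source used here states, and it is used only to rank and describe peaks within a list.

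The annotation holds 1972 head-to-head pairs with starts at most 500 bp apart, which involve 3815 of 13945 protein-coding genes (27.4%). Of these pairs, 1108 had a member summit, a share of 56.2%. A single summit was found at 1037 pairs, 2 at 70 pairs and 3 at 1 pair. Counted by start, 52.9% of the 4456 starts with a head-to-head partner had an IDR summit within 250 bp, against 18.9% of the other protein-coding starts. Counted by gene, 55.4% of the genes in pairs had such a summit, against 21.1% of the genes in no pair. A pair offers more sequence than a lone start, so the counts were also set against the area searched. The zones in which a summit would count held 820 summits per Mb at head-to-head promoters (1.44 Mb), 364 at other protein-coding promoters (6.93 Mb) and 24.1 in the rest of the 6 arms (126 Mb). Promoter activity in the ovary was not measured, and its part in these shares was not tested.

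Bound pairs were found on every arm. The share was 59.0% on X (170 of 288 pairs), 57.8% on 3R (301 of 521), 57.7% on 2R (217 of 376), 55.1% on 3L (216 of 392) and 51.8% on 2L (201 of 388), and the 95% Wilson intervals of these 5 shares overlap. On chromosome 4, 3 of 7 pairs were bound. The peaks nearest to the limits of the rule give its edges. Just inside the 500 bp limit, dgt5/CG8545 with a gap of 499 bp had a signal of 166, and just outside it Meics/ssp2 with a gap of 501 bp had 121. Just inside the 250 bp limit, the summit at sni/Trxr1 lay 247 bp from a start with a signal of 133, and beyond it the summit at Cisd2/Brd8 lay 292 bp away with 218.

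The 864 pairs without a member summit were not all free of signal. In the longer list made from both replicates together (the pooled list, 30000 peaks), 527 of them had a summit by the same rule, a share of 61.0% (57.7% to 64.2%). In 472 of them (54.6%) both replicate lists, of 30000 peaks each, had one. No summit in any of the 4 lists was found at 304 of the 864 pairs, or 35.2%. The threshold of the list therefore sets how many pairs count as bound.

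Cut to the same number of peaks, each replicate list alone gave nearly the same number of bound pairs. The 6723 strongest peaks of replicate 1 marked 1057 pairs (53.6%) and those of replicate 3 marked 1102 pairs (55.9%), of which 892 were marked by both. These 892 are 84.4% of the pairs of replicate 1 and 80.9% of the pairs of replicate 3. Of the 1180 member summits, 94.6% had a replicate 1 summit within 100 bp, 97.7% had a replicate 3 summit and 92.3% had both, against 93.6% with both among other promoter summits and 93.4% among summits away from promoters. A match came from replicate 3 only for 64 members and from replicate 1 only for 27, and 0 members lacked both. The IDR list was itself derived with these replicate lists, so the shares matched describe the placing of summits and are not independent evidence of binding. The member summit lay a median of 21.0 bp from the matched summit of replicate 1 and 11.0 bp from that of replicate 3. The ranks of matched members in the replicates were related, with a Spearman rank correlation of 0.655 over 1089 members, against 0.582 over 2359 other promoter summits. These points share their 2 libraries and the IDR selection, and the correlation is given as a description. Members that were not found in both replicates had a median signal of 153, against 194 for all members.

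**Figure D1:**
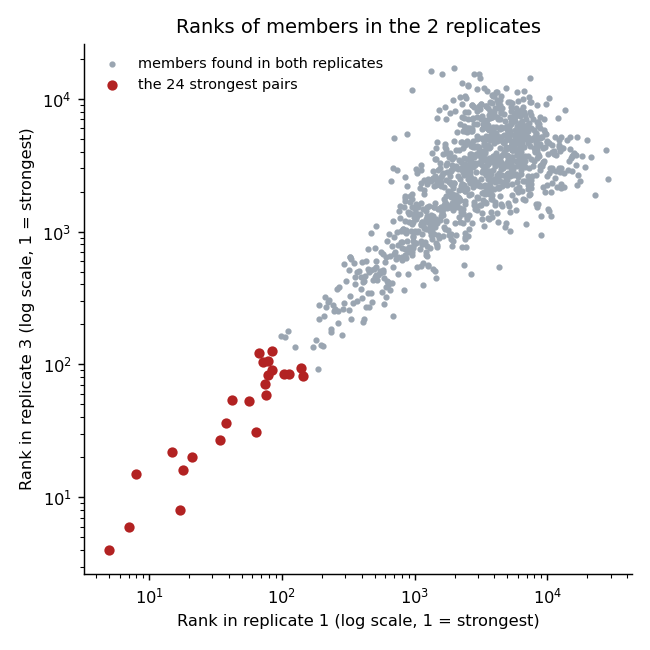
Rank of each member in replicate 3 (vertical) against its rank in replicate 1 (horizontal), both on log scales with 1 the strongest peak of a list. Red points are the 24 strongest pairs, which all rank within the first 145 of replicate 1 and the first 127 of replicate 3; grey points are the members found in both replicates, which spread widely at lower ranks.

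Member summits sat mainly in the stretch shared by the 2 genes. Of 1180 summits, 782 lay on or between the 2 starts, a share of 66.3% (63.5% to 68.9%), and 44.9% lay within 50 bp of the midpoint. The 398 others lay inside one of the genes, a median of 45.5 bp past its start. Relative to the nearest start, 65.1% of member summits were upstream, against 59.7% of other promoter summits. The distance to that start had a median of 74.0 bp for members and 63.0 bp for other promoter summits, and the rule bounds both at 250 bp.

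The position changed with the distance between the starts. Where the starts were 1 to 100 bp apart, 29.2% of summits lay between them, although that stretch made up 11.0% of the zone. The zone here is the gap plus 250 bp on each side. It was not cut where another start was nearer, so the zone truly searched can be smaller. The share between the starts was 62.6% at 101 to 200 bp, 83.8% at 201 to 300 bp, 78.5% at 301 to 400 bp and 65.7% at 401 to 500 bp, against 22.1%, 33.6%, 40.7% and 47.3% of the zone in the same order. At 201 to 300 bp, 237 of 365 summits (64.9%) lay within 50 bp of the midpoint and 17.5% within 50 bp of a start. At 401 to 500 bp, 11.4% lay near the midpoint and 25.9% within 50 bp of a start. At 1 to 100 bp, where the midpoint and the starts are themselves close, 70.0% lay within 50 bp of a start and 46.4% near the midpoint. At 101 to 200 bp the shares were 67.2% and 46.0%. The part of the zone that these 50 bp windows cover is not given here.

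**Figure D2:**
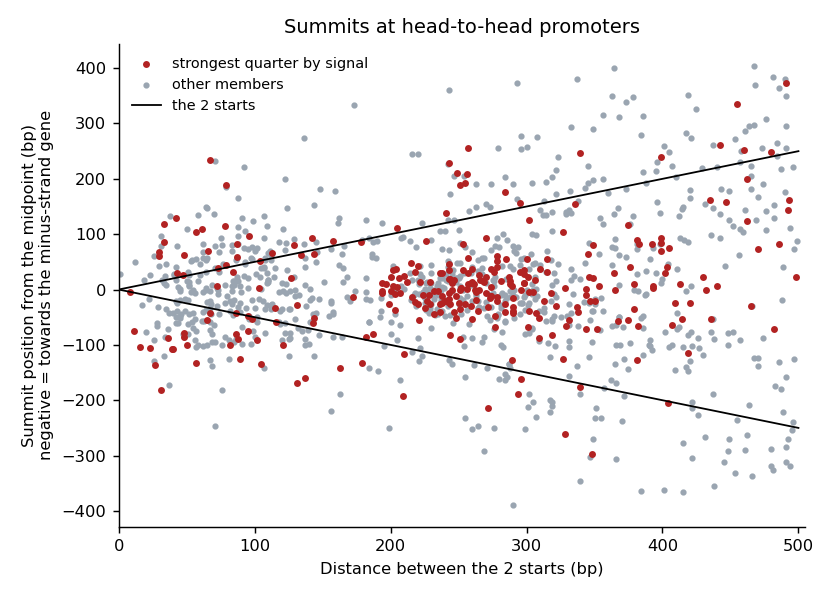
Position of each member summit from the midpoint of its pair (vertical, bp, negative towards the minus-strand gene) against the distance between the 2 starts (horizontal, bp). Black lines mark the starts, and red points, the 295 members of highest signal, gather near the midpoint where the starts are 201 to 300 bp apart.

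Pairs with starts 201 to 300 bp apart also had the highest share of bound pairs and the highest signal. The share was 61.4% (56.7% to 65.9%) at 1 to 100 bp, 48.7% (43.6% to 53.9%) at 101 to 200 bp, 63.3% (59.1% to 67.2%) at 201 to 300 bp, 54.4% (49.4% to 59.3%) at 301 to 400 bp and 45.8% (39.8% to 51.8%) at 401 to 500 bp. The intervals of the closest class and of the 201 to 300 bp class overlap each other, and neither overlaps those of the 101 to 200 bp and 401 to 500 bp classes. The median signal of members was 185, 193, 221, 190 and 172 over the same 5 classes. The A+T content of the 101 bp around the summit was 60.6%, 62.3%, 69.6%, 67.4% and 62.5%, and thus was highest in the class with the highest signal.

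**Figure D3:**
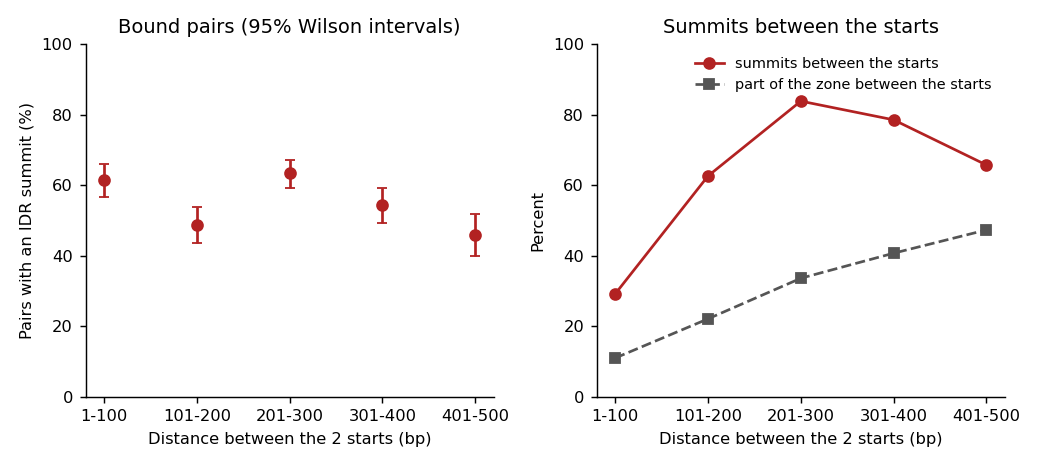
Left, share of head-to-head pairs with a member summit (vertical, percent, bars are 95% Wilson intervals) by the distance between the starts (horizontal, bp). Right, share of member summits between the starts (red) and share of the zone between the starts (grey), the zone being the gap plus 250 bp on each side. Red lies above grey in all 5 classes, with 83.8% against 33.6% at 201 to 300 bp.

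Members were slightly stronger than the other peaks. Their median signal was 194 (quartiles 149 and 295), against 177 for other promoter summits (143 and 245) and 177 for summits away from promoters (139 and 277). As a percentile within the IDR list the medians were 56.5 for members, 48.3 for other promoter summits and 48.7 for summits away from promoters, with wide overlap of the quartiles.

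The 5 strongest members found in both replicates stood among the first 15 peaks of the whole IDR list. The strongest of the 1180 was at CG11309/CG7632, with a signal of 2917 and rank 5 of the IDR list. It had rank 5 with a signal of 1199 in replicate 1 and rank 4 with 1717 in replicate 3. Its starts are 39 bp apart and the summit lay 88 bp inside CG11309. The next was at CG5611/Mtl, with a signal of 2531 and ranks 7 in replicate 1 and 6 in replicate 3. Both genes of Art3/mRpS10 have known roles, an arginine methyltransferase and a small-subunit protein of the mitochondrial ribosome. Its summit lay 9.50 bp from the midpoint of a 257 bp gap, with a signal of 2247 and ranks 17 and 8 in replicates 1 and 3. At eIF4EHP/CG18428, which includes a cap-binding repressor of translation, the signal was 2154 and the ranks were 8 and 15. At mRpS23/CenG1A, a mitochondrial ribosomal protein gene and an Arf GTPase regulator gene, the signal was 2061 and the ranks were 18 and 16. These 5 pairs ranked among the first 18 of each replicate list.

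The 24 strongest pairs also held genes for chromatin proteins. Chro, which encodes the interband protein Chromator, pairs with the TFIIH subunit gene Ssl1 and had a signal of 1929 with the summit 82 bp inside Chro. The pair brm/Arl1 joins the gene of the SWI/SNF ATPase Brahma to a Golgi GTPase gene, with a signal of 1460 and the summit 17.0 bp from the midpoint. Cp190, which encodes an insulator cofactor, pairs with CG4338 and had a signal of 1347 with the summit 15.5 bp from the midpoint. The replicate ranks were 15 and 22 for Chro/Ssl1, 64 and 31 for brm/Arl1, and 57 and 53 for Cp190/CG4338, replicate 1 first. Ing5, a gene of the inhibitor of growth family of chromatin readers, shares its promoter with CG7099, and that peak had a signal of 1167.

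Among the other pairs of the 24, Tcs5/CHMP2B joins a tRNA modification kinase gene to an ESCRT-III gene and had a signal of 1631. CG1275/Elp5 includes an Elongator subunit gene and had 1351. Mkk4/SLIRP2, a MAP kinase kinase gene with a mitochondrial RNA-binding protein gene, had 1218, and p38a/CG6178 had 1085. Lon/PIG-F, a mitochondrial protease gene with a GPI anchor synthesis gene, had 1104 and a summit 1.00 bp from its midpoint, and CG1602/PIG-G had 1056. CG4743/Idh3g, with a subunit gene of mitochondrial isocitrate dehydrogenase, had 1133, Gk1/CG13876, with a glycerol kinase gene, had 1106, and mRpL24/betaggt-I had 1020. The remaining 6 pairs, which are CG13390/CG17294 (1888), Pdrg1/Pal1 (1537), CG10747/Pyroxd1 (1121), Fbw5/CG9147 (1094), Mnat9/CG1792 (1051) and CG13018/CG13016 (1014), close the range. Of all 24 summits, 21 lay between the starts and 16 within 50 bp of the midpoint, and 18 of the pairs had starts 201 to 400 bp apart. The A+T content around the 24 summits was 67.3% to 85.1%, with a mean of 75.6%. None of the 24 held a DRE or a Motif 1 within 100 bp, 2 held Motif 7, 3 held Motif 6, 13 held TATAAA and 16 held a run of 6 A.

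A+T content was highest at the strongest members. The mean over 101 bp at all member summits was 65.3% ± 10.9 (SD over 1180 summits), against 58.7% ± 10.3 at other promoter summits, 64.0% at summits away from promoters and 50% at points 500 bp from the member summits. The midpoints of bound pairs had 67.2% and the midpoints of unbound pairs 65.5%, so the stretch between divergent starts was rich in A+T with or without a peak in the IDR list. All protein-coding starts averaged 56.3%. The members were then cut by signal into 4 classes of 295. The strongest class had 71.5% ± 10, the second 65.0% ± 10.9, the third 63.0% ± 10.3 and the weakest 61.6% ± 9.83 (SD, n = 295 each). Classes made from the ranks in replicate 1 gave 71.3%, 65.0%, 61.8% and 63.0%, and those from replicate 3 gave 71.3%, 66.1%, 62.2% and 61.6%. All classes by replicate rank, here and below, hold only the 1089 members found in both replicates, in classes of 272 or 273. At other promoter summits the classes, made the same way, had 62.3%, 57.0%, 57.8% and 57.5%.

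Strength also went with where the summit sat inside the stretch. Between the starts lay 73.9% of the summits in the strongest class, 71.2% in the second, 61.0% in the third and 59.0% in the weakest. By the ranks in replicate 1 the shares were 72.5%, 65.4%, 62.9% and 65.1%, with no decline after the second class, and by those in replicate 3 they were 75.1%, 73.5%, 61.8% and 55.5%. The summit lay within 50 bp of the most A+T-rich 101 bp window of its own searched zone at 66.8% of members in the strongest class (61.2% to 71.9%), 43.4% in the second, 31.9% in the third and 22.7% in the weakest (18.3% to 27.8%). By A+T content within that zone, summits had median percentiles of 90.1, 78.0, 67.3 and 60.2 over the classes, strongest first. The midpoints of the same pairs had 89.2, 83.8, 82.6 and 77.8. Whether summits go with A+T content apart from their place near the midpoint was not tested. Matches in both replicates were found for 96.6%, 96.3%, 90.2% and 86.1% over the classes, strongest first, so positions of the weakest members are less certain. How base composition acts on fragmentation, amplification and mapping of reads was not measured, and its part in this relation was not tested.

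**Figure D4:**
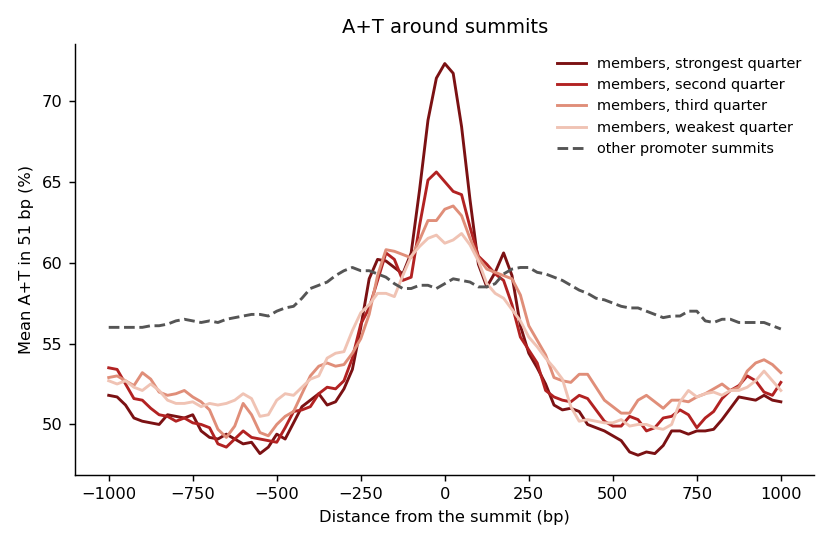
Mean A+T content in 51 bp windows (vertical, percent) by distance from the summit (horizontal, bp) for the 4 classes of members by signal and for other promoter summits (dashed). The strongest class reaches 72.3% at the summit and the weakest 61.2%, against 58.7% at other promoter summits, and the classes of members lie close together 500 bp away.

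Promoter motifs were counted in the 201 bp around each summit, on both strands. The DRE was held by 158 members (13.4%, 11.6% to 15.5%), against 9.01% of other promoter summits (7.95% to 10.2%), 8.10% of midpoints of unbound pairs, 6.45% of all protein-coding starts and 0.254% of windows 1000 bp from the members. Its CGATA core, which a DRE always contains, was held by 50.5% of members, against 41.4% of other promoter summits and 42.6% of unbound midpoints. Motif 7 was held by 20.2% (18.0% to 22.6%), against 14.2% (12.9% to 15.6%), 11.9% and, at all starts, 11.0%. Motif 6 was held by 13.2%, against 10.2% of other promoter summits, 13.0% of unbound midpoints and 9.26% of all starts. Motif 1 was held by 71 members, or 6.02% (4.8% to 7.52%), against 5.32% (4.51% to 6.27%) of other promoter summits, 4.75% of unbound midpoints and 4.42% of all starts. Midpoints of bound pairs are placed like those of unbound pairs. The DRE was at 13.4% of them, Motif 7 at 17.8%, Motif 6 at 16.4% and Motif 1 at 6.41%. At least 1 of these 4 motifs was present at 44.4% of members and 32.4% of other promoter summits. For the DRE and Motif 7 the intervals of members and other promoter summits do not overlap, and for Motif 1 they do.

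GAGAG and the Initiator core were held by smaller shares of members than of other promoter summits and all starts. GAGAG, found in sites of the factor Trl, was held by 15.3% of members (13.4% to 17.5%), against 30.3% of other promoter summits (28.5% to 32.1%), 17.1% of unbound midpoints and 25% of all starts. The Initiator core TCAGT was held by 28.3%, against 36.7%, 37.0% and 43.4% in the same order, and CACACA by 13.2%, against 18.6%, 11.0% and 16.1%. In windows 1000 bp from the members, GAGAG was held by 21.3% and TCAGT by 26.6%, so the TCAGT share of members was near that of their surroundings. Windows at all starts are centred on a start. Member summits lay a median of 74.0 bp from the nearest start and other promoter summits 63.0 bp. The part of this placement in the TCAGT shares was not tested. TATAAA was held by 36.3% of members, 25% of other promoter summits and 37.4% of unbound midpoints, with 26.9% at all starts. The run AAAAAA was held by 45.1%, 41.4%, 45.9% and 36.0% of the same 4 sets. The E-box CAGCTG was held by 16.1%, 16.2%, 14.7% and 13.4%. Member summits and midpoints of unbound pairs were close for the TATA box, the A run and the Trl site. The first windows are centred on summits and the second on midpoints. At midpoints of bound pairs the shares were 41.9% for TATAAA, 47.6% for the A run, 13.0% for GAGAG and 27.6% for TCAGT. The midpoints of unbound pairs had 37.4%, 45.9%, 17.1% and 37.0%.

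**Figure D5:**
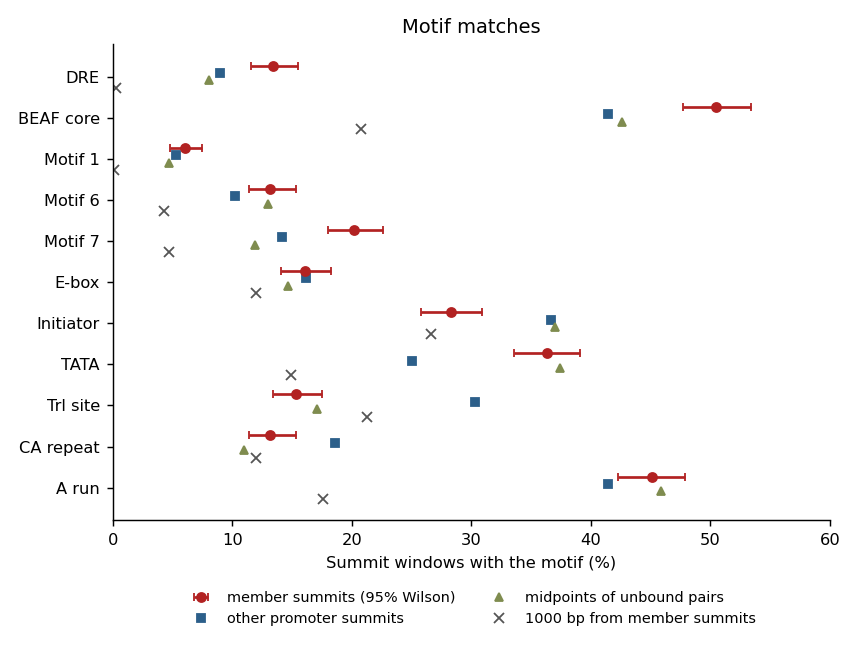
Share of 201 bp windows with each motif on either strand (horizontal, percent) at member summits (red, with 95% Wilson intervals), other promoter summits, midpoints of unbound pairs and points 1000 bp from members. The DRE is at 13.4% of members against 9.01% of other promoter summits, and the Trl site GAGAG at 15.3% against 30.3%; the label BEAF core stands for CGATA.

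The DRE and Motif 7 were held by like shares of strong and weak members, and Motif 1 by few of the strongest. The DRE was held by 12.2%, 15.6%, 12.9% and 12.9% of members over the classes, strongest first, and Motif 7 by 18.6%, 20.0%, 20.7% and 21.4%. Motif 1 was held by 6 of 295 members in the strongest class (2.03%), 20 in the second, 15 in the third and 30 in the weakest (10.2%). By the ranks in replicate 1 its shares were 2.20%, 8.09%, 7.35% and 6.25%, and by those in replicate 3 they were 1.83%, 5.15%, 8.46% and 8.46%. The strongest class thus had the lowest share each time. The weakest class had the highest share by signal (10.2%) and tied for the highest by the ranks in replicate 3 (8.46%). By the ranks in replicate 1 the weakest class did not have the highest share (6.25%). Over the classes by signal, TATAAA ran the other way with 47.8%, 35.9%, 32.5% and 28.8%, as A+T content did. Members with Motif 1 had a median signal of 163 and 59.1% ± 9.96 A+T (SD, n = 71), against 200 and 65.6% ± 11.0 for the 656 members with none of the 4 motifs. Members with a DRE had a median signal of 197, those with Motif 6 had 191 and those with Motif 7 had 191. The centre of the nearest DRE lay a median of 52.5 bp from the summit and that of Motif 1 a median of 48.0 bp, with quartiles of 28.5 and 77.5 bp for the DRE. The strongest members with each motif were Atat/Shc for the DRE (871), CG7130/RpLP0 for Motif 1 (447), CG13390/CG17294 for Motif 6 (1888) and Ing5/CG7099 for Motif 7 (1167).

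The genes served by these promoters were described by lists of cellular machinery, in which a gene counts as bound when an IDR summit lies within 250 bp of one of its own starts. The shares are to be read against 55.4% over all genes of head-to-head pairs and 21.1% over all others. Pairs named for a list are ordered by the signal of their summit. That summit can lie near the partner gene and beyond 250 bp from the start of the listed gene. Of the cytosolic ribosomal protein genes, 37 of 90 lie in pairs and 32 of these were bound (86.5%), against 48 of the 53 in no pair (90.6%). The strongest were RpL32/CG7943 with a signal of 650 and Nelf-E/RpL14 with 580. Of the mitochondrial ribosomal protein genes, 54 of 75 lie in pairs and 34 were bound (63.0%), against 9 of 21 in no pair. Translation factor genes had 15 of 21 bound in pairs and 21 of 37 outside, and aminoacyl-tRNA synthetase genes 16 of 21 in pairs and 4 of 12 outside. SerRS/CG17260, whose starts are 8 bp apart, had the strongest peak of the synthetase pairs (528), and GluProRS/AP-1sigma (401) and Hem/IleRS (342) followed. Among translation factors RpL28/eIF1 had 369 and eIF3a/CG1074 had 276, both with a DRE, and the eIF3a summit had no match in replicate 3. The RpL28/eIF1 summit of 369 lay 62 bp from the RpL28 start and 319 bp from the eIF1 start. A second summit at that pair had 185.

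The lists of transcription, RNA processing, nuclear pore and protein import genes had 57.9% to 81.2% of their paired genes bound. General transcription factor and Mediator genes had 38 of 54 bound in pairs (70.4%) and 16 of 34 outside, with Taf5/Pex6 at a signal of 807, Brf/sds22 at 710 and MED30/Rev1 at 609. In the pair Taf10b/Taf10, both genes encode TFIID subunits, and its peak was weaker, with a signal of 146. Splicing factor genes had 16 of 27 bound in pairs and 8 of 13 outside, led by U2af50/PIG-Q (588), SC35/eRF3 (349) and snRNP-U1-C/gukh (334). RNA decay and repression genes had 13 of 20 and 7 of 11, led by the exosome gene pair Rrp6/CG33331 (363), then sti/tral (332) and Csl4/Nup160 (328). Nuclear pore genes had 11 of 19 and 3 of 10, led by wfs1/Nup133 (516), RpS27/Nup37 (437) and Nup93-2/CG3817 (359, no match in replicate 3). Genes of protein import into the nucleus or mitochondria had 13 of 16 and 3 of 16, led by HemK2/Tnpo-SR (517), Kap-alpha3/Son (455) and Hs2st/RanGAP (434).

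DNA metabolism and the cell cycle gave mixed counts. DNA replication genes had 11 of 25 bound in pairs (44.0%) and 5 of 21 outside, led by CG13933/PolD2 (587), with dup/SRPK (284, no match in replicate 1) and the replicative helicase gene pair Art1/Mcm5 (188) lower. DNA repair genes had 18 of 28 and 7 of 22, led by mgr/Irbp (804), where Irbp encodes Ku70, and mrva/mus312 (644). Genes of cyclins, their kinases, the anaphase promoting complex and the kinetochore had 16 of 26 and 15 of 31, led by Kmn2/CG2698 (450), orb/Cdc16 (389) and SAK/Cdk12 (378). The SAK/Cdk12 summit of 378 lay 96 bp from the SAK start and 323 bp from the Cdk12 start. A second summit at that pair had 157. In orb/Cdc16 the partner orb encodes an RNA-binding protein required for oocyte development.

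Among genes of protein turnover, membranes and energy, proteasome genes had 12 of 24 bound in pairs and 10 of 24 outside, led by l(2)37Bb/Rpn3 (348), mRpL39/Prosbeta2 (302) and Hat1/Rpn5 (288), the first 2 with a DRE. The Hat1/Rpn5 summit lay 127 bp from a Hat1 start and 292 bp from the Rpn5 start, so it does not count for Rpn5. Oxidative phosphorylation genes had 26 of 40 and 16 of 54, with corolla/ND-24 (388), TppII/ND-MWFE (368) and Sec3/COX7B (354) at modest signals. Vesicle traffic genes had 35 of 50 and 18 of 39, led by alphaCOP/CG13919 (781) and Pdp/Rab39 (430), and the pair Cog3/Sec5, of 2 tethering complex genes, had 192. The Pdp/Rab39 summit of 430 lay inside Pdp, 350 bp from the Rab39 start, and a second summit at that pair had 217. Autophagy, vacuolar sorting and V-ATPase genes had 34 of 41 (82.9%) and 16 of 42, led by Vha100-2/Vti1b (710), Fur1/Vps33B (672) and CG12093/Atg2 (510). The Vha100-2/Vti1b summit lay inside Vti1b, 268 bp from the Vha100-2 start of that pair. Peroxisome biogenesis genes had 7 of 10 and 3 of 5, led by Pex11ab/CG8320 (878), with CG12099/Pex10 at 369.

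Chemosensory receptor and cuticle genes, which act mainly in sensory organs and the epidermis, were seldom in pairs and seldom bound. Of 230 odorant, gustatory and ionotropic receptor genes, 23 lie in pairs and 1 of these was bound, against 0 of 207 in no pair. Their pairs with a member summit were Ir60e/CG13585 (142), where the summit lay inside CG13585, and Cyp9h1/Or49b (119), both low in the list. Of 126 cuticle protein genes, 3 lie in pairs and 0 of these were bound, against 0 of 123 in no pair. Within 16 of the 19 lists, the share bound was higher among genes in pairs than among genes in no pair. Over all genes these shares were 55.4% and 21.1%. The difference was small for RNA decay and repression genes (65.0% against 63.6%) and rested on 1 gene for the receptors. Cytosolic ribosomal proteins, splicing factors and cuticle proteins were the exceptions.

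At the 71 pairs with several member summits, the outer summits lay a median of 204 bp apart, with quartiles of 201 and 216 bp. This narrow spread was seen over gaps with quartiles of 221 and 394 bp. The strongest by summed signal were CG1275/Elp5 (1351 and 126), Brf/sds22 (710 and 500), CG3437/CG3552 (580 and 437), tty/fliI (639 and 255) and CG6550/Mtap (434 and 404). At the first 2 and at CG3437/CG3552 and CG6550/Mtap 1 of the 2 summits lay between the starts, and at tty/fliI, whose starts are 65 bp apart, the summits lay on either side of the starts. All summits were matched in both replicates at 44 of the 71 pairs. Whether the spacing comes from the peak calling, whose settings no source used here states, was not tested.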

How the data were processed

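ChIP-seq of CG17801-GFP from adult ovaries was available as peak lists of 2 replicates, a pooled list and an IDR list. Per the file headers (text descriptions beside the deposited lists), the authors called peaks per replicate and on the alignments of both together, each time with a control, and derived the IDR list from these 3 lists, on dm6. The aligner and caller were not given in the sources used here. Signal values are those the authors deposited for each peak, and other columns were not used except the summit offset, in bp from the peak start per the deposited format. The lists do not give read depth, which stays unknown, nor the precision it gives. Fragments were 200 to 800 bp, per the labels.

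Starts came from Ensembl release 115 on BDGP6 and sequence from the RefSeq Release 6 genome. No peak ran past the end of an arm. Each distinct transcript start counted, and a summit was assigned by its nearest start. Summits within 100 bp counted as matched. Motif windows were 201 bp and A+T windows 101 bp, and windows beside members lay 1000 bp away on each side. Intervals are 95% Wilson intervals and cover sampling of peaks or pairs only. No test was run, since there is 1 group and members were found by position. The steps that class and match summits were checked on 4000 simulated summits, of which 100% got their planted class. The simulated loci lay far apart with 1 start per gene. The counts of motifs, bases, zones and gene lists were not checked this way. Software was Python 3.11.15 with pandas 2.3.3, numpy 2.4.6, matplotlib 3.10.9 and scipy 1.17.1.

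The members, the 19 gene lists (1311 genes by symbol pattern) and the 11 motifs were chosen with earlier results of these data known. Genes whose symbols matched a list by accident were removed by name after the counts had been seen. Named pairs are the 24 of highest signal found in both replicates, up to 3 per list, pairs with both genes in 1 list, the 5 with several summits of highest summed signal, and those nearest to the limits; 1 pair that this rule names is not reported here. Printed sequences, 1644 bases, leave out arm 2R and UTR bases, and their stretches and the DRE and Motif 1 examples were chosen after the values were seen.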

Additional observations from a re-analysis of the deposited data

How the results depend on the processing

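Of 62 values recomputed under other settings, 32 were close to the value reported (within its interval, or for the count of members within 1.5 times) and 30 moved. Member summits numbered 1577 with starts at most 1000 bp apart, 569 with starts at most 250 bp apart, 776 with summits within 100 bp of a start, 675 in the stronger part of the IDR list and 2295 in the pooled list. The share of pairs bound was 53.9% at 1000 bp between starts, 38.4% with summits within 100 bp, 33.3% in the stronger part of the list and 82.9% in the pooled list. With 1 replicate left out, the share was 53.6% to 55.9%. Summits between the starts made up 55.9% with starts at most 250 bp apart, 62.4% at 1000 bp and also with only the most upstream start of a gene, 58.9% within 100 bp, 72.0% in the stronger part of the list and 55.4% in the pooled list, and 60.7% to 69.9% with 1 replicate left out. Members found in both replicates were 93.8% within 100 bp of a start, 95.9% in the stronger part of the list, 71.7% in the pooled list, 67.8% when matched within 50 bp and 99.2% within 250 bp. The median signal percentile was 53.7 at 1000 bp between starts, 52.6 within 100 bp, 52 in the stronger part of the list and 78.5 in the pooled list, each within its own list. A DRE was held by 16.9% with starts at most 250 bp apart, 16.8% within 100 bp, 5.93% in windows of 50 bp on each side and 20.4% in windows of 150 bp. RefSeq starts, an alternative chosen after seeing the data like the classes by replicate rank, gave 1179 members and 56.7% of pairs bound. No paired analysis was possible because there is 1 group. With 2 replicates, no control list and unknown depth, weak pairs cannot be told apart from unbound ones.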
